A study of Mus musculus with 8 samples.

Results

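The genes described here are 6 markers of the cyclic GMP olfactory neurons of the mouse main olfactory epithelium: Gucy1b2, Trpc2, Gucy2d, Cnga3, Pde2a and Car2. They were picked by name from the 22553 genes of the deposited table, as markers of hypoxia-sensing and necklace neurons, with their counts in these data already known. Ribosome footprints, the pieces of mRNA shielded by a ribosome, and input RNA were sequenced from cells sorted out of the epithelium of mice with and without the RNA-binding protein gene Mex3a. The table holds 1 footprint column and 1 RNA column for each of 4 groups. The 8 labelled libraries are titled as footprint libraries, 2 per group, and the RNA columns have no labelled libraries. No difference below thus has a replicate check, and none has a p-value.

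The Ngn1-GFP KO group carried Mex3a fl/fl, Cre and the Ngn1-GFP transgene, and its GFP-positive cells are labelled as neuronal progenitors and immature olfactory sensory neurons. The Ngn1-GFP control carried floxed Mex3a and Ngn1-GFP without Cre. The OMP-GFP KO carried Mex3a fl/fl and Cre with an Omp allele that one label gives as OMP-ires-GFP and another as OMP-ires-Cre, and its cells are labelled as mature olfactory sensory neurons. The OMP-GFP control carried floxed Mex3a and OMP-ires-GFP without Cre. All groups thus carried floxed Mex3a, and for the controls the descriptions allow fl/fl or fl/+ where the genotype tags give fl/fl. Age and sex of the animals, and how many were pooled, are not given in the sources used here.

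Most olfactory neurons detect odours through receptors that raise cyclic AMP, by way of the cyclase Adcy3 and the channel subunit Cnga2. A small set of neurons uses cyclic GMP instead. Neurons with Gucy1b2, a beta subunit of soluble guanylyl cyclase, together with the channel Trpc2 are known as type B cells and respond to low oxygen, whereas type A cells have Trpc2 without Gucy1b2. Necklace neurons have the receptor guanylyl cyclase Gucy2d, the cyclic GMP-gated channel subunit Cnga3, the cyclic GMP-stimulated phosphodiesterase Pde2a and the carbonic anhydrase Car2, and are known to respond to carbon dioxide and to the peptide uroguanylin.

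The columns held 3031489 footprints in Ngn1-GFP KO, 4456989 in Ngn1-GFP control, 4100841 in OMP-GFP KO and 3576406 in OMP-GFP control, and between 26946592 and 89327877 RNA counts. Counts were divided by depth and by TMM factors, which gives scaled CPM. A pair of columns counts as measured with at least 20 counts, and as called when the scaled values are at least 2-fold apart and the exact 95% interval of the counts excludes 1. Ratios are log2, with that interval in brackets. It covers counting error only, and PCR copies are not independent molecules. The deleted gene Mex3a had 28 footprints in Ngn1-GFP KO against 437 in the control, and 5 in OMP-GFP KO against 16 in the control. Its RNA ratios were -2.25 in Ngn1-GFP cells and -3.09 in OMP-GFP cells. Omp, the marker of mature neurons, had 5904 footprint RPKM in Ngn1-GFP KO, 5744 in Ngn1-GFP control, 7302 in OMP-GFP KO and 5492 in OMP-GFP control, so it was abundant in both populations. Gap43, a marker of immature neurons, had 1027 and 1060 RPKM in Ngn1-GFP KO and control, and 461 and 451 in OMP-GFP KO and control. In RNA, 376 genes exceeded the 3 other columns by 8-fold or more in Ngn1-GFP control, against 10 in Ngn1-GFP KO, 5 in OMP-GFP KO and 1 in OMP-GFP control, and none of the 6 genes was among them.

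Gucy1b2 was lower in KO than in control cells in both populations and in both assays. It had 0 footprints in Ngn1-GFP KO cells against 61 in Ngn1-GFP control cells, and 46 in OMP-GFP KO cells against 197 in OMP-GFP control cells. Its RNA counts were 56 in Ngn1-GFP KO against 656 in Ngn1-GFP control, and 157 in OMP-GFP KO against 1024 in OMP-GFP control. Trpc2, the other marker of the same neurons, was not called in any of these 4 comparisons, and neither were Pde2a and Car2. Gucy2d was not called in the 3 comparisons in which it was measured and had too few footprints in Ngn1-GFP cells. Cnga3 had too few footprints in both populations and was called lower in Ngn1-GFP RNA, on 27 counts, fewer than the stricter minimum of 50. In sorted bulk cells, fewer cells of a type and less RNA per cell cannot be told apart.

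The sequences directly upstream of Gucy1b2 and Trpc2 are shown because both genes mark type B neurons, while the RNA of the first was lower in KO and that of the second was not. Each window is the 250 bases before the transcript start in the RefSeq promoter table, in its assembly (GRCm38.p6, the build mm10 is based on) and written in the direction of the gene. That of Gucy1b2 lies at chr14:62456290-62456539 on the minus strand, and that of Trpc2 at chr7:102082866-102083115 on the plus strand. The start used for Gucy1b2 lies just inside the outermost annotated end of the gene, so its window overlaps the gene by 2 bases.
Gucy1b2: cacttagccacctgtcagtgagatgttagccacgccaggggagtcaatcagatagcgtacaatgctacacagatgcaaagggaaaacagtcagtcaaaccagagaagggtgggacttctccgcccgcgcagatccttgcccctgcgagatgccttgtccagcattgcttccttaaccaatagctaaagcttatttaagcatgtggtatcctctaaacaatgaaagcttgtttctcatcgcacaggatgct
Trpc2: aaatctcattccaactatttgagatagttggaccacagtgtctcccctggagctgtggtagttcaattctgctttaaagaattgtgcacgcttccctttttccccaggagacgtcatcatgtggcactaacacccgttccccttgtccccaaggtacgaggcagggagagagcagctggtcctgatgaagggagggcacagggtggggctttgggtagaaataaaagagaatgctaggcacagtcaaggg
GC content was 48.8% in the Gucy1b2 window and 50.8% in the Trpc2 window. A search of both strands for TAATTA, a core read by homeodomain proteins, for CCCNNGGG, a core read by Ebf proteins, and for TATAAA, the TATA box, found no match in either, so no base is in capitals. Of 32851 such windows in the mouse annotation, 4.84% held TAATTA, 11.8% CCCNNGGG and 12.4% TATAAA, and the absence of a match says only that these letters are not in these windows.

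Gucy1b2 (ENSMUSG00000021933) lies on chromosome 14, 62372935 to 62456291, and has a coding length of 2475 bases in the deposited table. In scaled values its footprints were 0 CPM in Ngn1-GFP KO against 12.4 CPM in Ngn1-GFP control, and 12.4 CPM in OMP-GFP KO against 57.9 CPM in OMP-GFP control. The OMP-GFP control thus had the highest level and the Ngn1-GFP KO the lowest, while the counting intervals of OMP-GFP KO, 9.10 to 16.6 CPM, and of Ngn1-GFP control, 9.48 to 15.9 CPM, overlapped. In Ngn1-GFP cells footprints were 13.2-fold lower in KO with the 0 set to 3, and the interval bound nearest to no difference was 10.4-fold. In OMP-GFP cells they were 4.65-fold lower in KO (-2.22 [-2.71, -1.75]). RNA was likewise highest in OMP-GFP control and lowest in Ngn1-GFP KO, with 1.92 CPM in Ngn1-GFP KO against 7.28 in Ngn1-GFP control, and 6.03 in OMP-GFP KO against 32.9 in OMP-GFP control. RNA was 3.79-fold lower in KO among Ngn1-GFP cells (-1.92 [-2.34, -1.53]) and 5.45-fold lower among OMP-GFP cells (-2.45 [-2.70, -2.20]). The difference of the 2 RNA ratios, OMP-GFP minus Ngn1-GFP, was -0.53 [-0.99, -0.06].

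**Figure D1:**
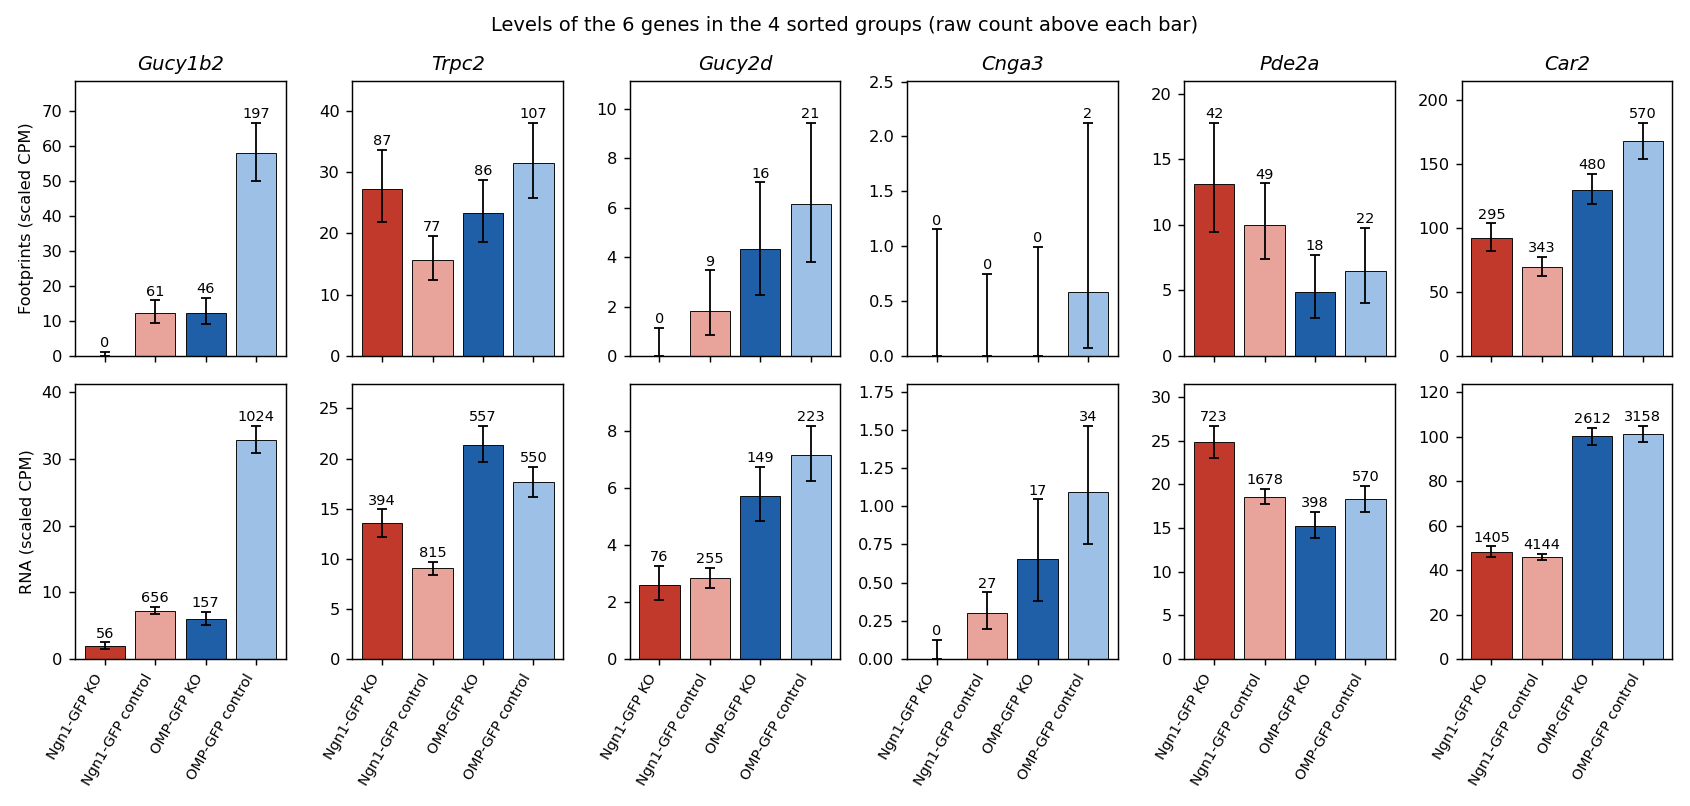
Footprints (top, scaled CPM) and RNA (bottom, scaled CPM) of the 6 genes in Ngn1-GFP KO, Ngn1-GFP control, OMP-GFP KO and OMP-GFP control, with bars for the single column of each group, error lines for exact 95% counting intervals and the raw count above each bar. Gucy1b2 is low in both KO columns and in both assays, with 0 and 46 footprints against 61 and 197, while the Trpc2, Pde2a and Car2 bars of KO and control lie within 2-fold of each other.

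The footprints of Gucy1b2 relative to its RNA were near the control value in OMP-GFP KO cells. At the footprints per RNA of the OMP-GFP control, the OMP-GFP KO would have had 39.3 footprints, and 46 were counted, a ratio of 0.23 [-0.30, 0.75]. In Ngn1-GFP KO cells the same calculation gave 10.5 footprints where 0 were counted. With the 0 set to 3, footprints over RNA were 3.49-fold lower in KO (-1.80). An approximate interval, -3.52 to -0.085, takes the set 3 as a real count, so both of its bounds depend on that setting. Of 12533 genes measured for footprints over RNA in Ngn1-GFP cells, 10.2% were called lower. The authors' deposited table gives Gucy1b2 a translational efficiency of 0 in Ngn1-GFP KO and 2.49 in Ngn1-GFP control, and of 2.65 in OMP-GFP KO and 2.27 in OMP-GFP control. Medians of that ratio over genes with at least 20 footprints were 1.44, 1.60, 1.33 and 1.33 in the same order of groups.

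Most genes with about as many control footprints as Gucy1b2 kept some in the Ngn1-GFP KO column. Gucy1b2 was chosen with its counts known, so the shares in this paragraph are a description, and nothing is read from them. Of 1265 genes with 50 to 75 footprints in Ngn1-GFP control, 9 (0.711%) had 0 in Ngn1-GFP KO. Across the table, 10829 genes were measured in both assays and both populations, and 16 of them (0.148%) were called lower in KO in all 4 comparisons, against 9 (0.0831%) called higher. Of these 16, 13 are olfactory receptor genes, and the other 3, named after their values were seen, are Gucy1b2, the deleted Mex3a and the ribosomal protein gene Rpl34. The share of receptor genes among the 10829, or among the 9 called higher, is not given here, so the 13 cannot be set against it. The genes whose levels across the 8 columns were most like those of Gucy1b2 were also olfactory receptor genes. Of 9901 candidates with at least 100 footprints, Olfr292 had the smallest root mean square difference (0.83 on the log2 scale), then Olfr286 (0.91) and Olfr1199 (0.94). These distances are large beside those of the nearest genes of Trpc2, Tmem136 at 0.10, Atp2b4 at 0.11 and Ptp4a3 at 0.12. In raw OMP-GFP footprints, KO against control, Olfr292 had 87 against 85, Olfr286 15 against 51 and Olfr1199 23 against 59. Olfr292, the nearest gene, thus did not share the OMP-GFP footprint difference of Gucy1b2. Gucy1b2 overlaps 3 annotated genes, Rnaseh2b at an edge and the predicted Gm46457 and Gm35468 inside it. Rnaseh2b, a subunit of ribonuclease H, had footprint ratios of -0.56 in Ngn1-GFP and -0.15 in OMP-GFP cells, RNA ratios of -0.22 and 0.09, and no call.

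Trpc2, a channel subunit of vomeronasal neurons and of type A and type B cells, was within 2-fold of the control in both populations. Trpc2 (ENSMUSG00000100254, chromosome 7, 102083116 to 102096864) had 87 footprints in Ngn1-GFP KO against 77 in Ngn1-GFP control, and 86 in OMP-GFP KO against 107 in OMP-GFP control. Its RNA counts were 394 against 815 in Ngn1-GFP KO and control, from columns of unequal depth, and 557 against 550 in OMP-GFP KO and control. In scaled values footprints were 27.2 CPM in Ngn1-GFP KO against 15.6 in the control, and 23.2 CPM in OMP-GFP KO against 31.4 in the control. The footprint ratio was thus above 0 in Ngn1-GFP cells (0.80 [0.34, 1.26]) and below 0 in OMP-GFP cells (-0.44 [-0.86, -0.01]). The RNA ratios were both above 0, at 0.58 [0.40, 0.76] in Ngn1-GFP cells and 0.28 [0.11, 0.45] in OMP-GFP cells. None of the 4 ratios was called.

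The ratio of Gucy1b2 to Trpc2 per length was lower in KO than in control cells. In footprint RPKM it was 0 in Ngn1-GFP KO against 0.856 in Ngn1-GFP control, and 0.578 in OMP-GFP KO against 1.99 in OMP-GFP control. In RNA TPM it was 0.154 in Ngn1-GFP KO against 0.869 in Ngn1-GFP control, and 0.304 in OMP-GFP KO against 2.01 in OMP-GFP control. Trpc2 overlaps Xndc1 and the read-through gene Xntrpc, and the Xntrpc counts lay within 3 footprints or 8 RNA counts of the sum of Trpc2 and Xndc1 in every column, so shared reads were counted for both. How many Trpc2 reads came from read-through transcripts cannot be told apart here. Xntrpc had ratios of 0.61 and -0.58 in footprints, and of 0.31 and 0.18 in RNA, in Ngn1-GFP and OMP-GFP cells, with no call.

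**Figure D2:**
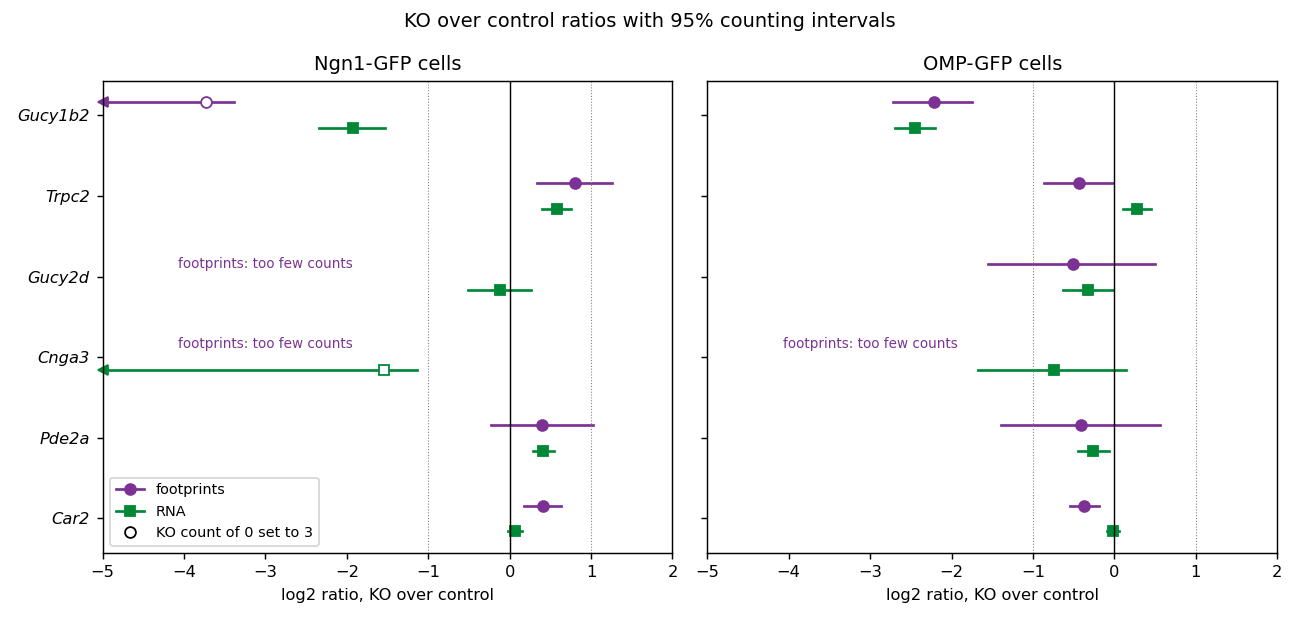
Log2 ratios of KO over control for the 6 genes in Ngn1-GFP cells (left) and OMP-GFP cells (right), circles for footprints and squares for RNA, with exact 95% counting intervals; open symbols stand for a KO count of 0 set to 3, arrows for intervals without a lower bound, and dotted lines for 2-fold. The Gucy1b2 intervals lie beyond 2-fold lower in all 4 comparisons, from -3.72 for footprints in Ngn1-GFP cells to -1.92 for RNA in the same cells.

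The necklace marker Gucy2d was scarce, and its KO and control RNA differed by less than 2-fold. Gucy2d (ENSMUSG00000074003, chromosome 7, 98440416 to 98477478, overlapping the predicted Gm2926 and Gm44978) had 0 footprints in Ngn1-GFP KO against 9 in Ngn1-GFP control, too few for a ratio, and 16 in OMP-GFP KO against 21 in OMP-GFP control. At the control's footprints per RNA, 5.39 footprints would have been counted in Ngn1-GFP KO. A 0 was common at such counts: of 1920 genes with 5 to 15 footprints in Ngn1-GFP control, 621 (32.3%) had 0 in Ngn1-GFP KO. The footprint ratio in OMP-GFP cells was -0.51 [-1.55, 0.50], an interval that holds both no difference and 2-fold lower. RNA counts were 76 in Ngn1-GFP KO against 255 in Ngn1-GFP control, and 149 in OMP-GFP KO against 223 in OMP-GFP control. Scaled, these came to 2.61 against 2.83 CPM and 5.72 against 7.15 CPM, with ratios of -0.12 [-0.51, 0.26] and -0.32 [-0.63, -0.02].

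Cnga3, the channel subunit that cyclic GMP opens in necklace neurons and in cones, had too few footprints in every comparison. It had 0 footprints in Ngn1-GFP KO, Ngn1-GFP control and OMP-GFP KO, and 2 in OMP-GFP control. A count of 0 allows up to 3 counts, which is 0.938 CPM in Ngn1-GFP KO, 0.609 in Ngn1-GFP control and 0.811 in OMP-GFP KO. The two-sided exact 95% intervals drawn in the plot of levels reach 1.15, 0.749 and 0.997 CPM for the same columns. Its RNA counts were 0 in Ngn1-GFP KO against 27 in Ngn1-GFP control, and 17 in OMP-GFP KO against 34 in OMP-GFP control. Cnga3 (ENSMUSG00000026114, chromosome 1, 37218241 to 37263384) was 2.91-fold lower in Ngn1-GFP KO RNA with the 0 set to 3, and the interval bound nearest to no difference was 2.21-fold. In this column pair 35.5% of genes with 20 to 49 RNA counts were called lower. In OMP-GFP cells the ratio was -0.74 [-1.67, 0.14] and not called.

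Pde2a and Car2, the enzymes of the necklace set, were within 2-fold of control in both assays. Pde2a, which breaks down cyclic nucleotides when cyclic GMP binds it, had 42 footprints in Ngn1-GFP KO against 49 in Ngn1-GFP control, and 18 in OMP-GFP KO against 22 in OMP-GFP control. Its RNA counts were 723 against 1678 and 398 against 570 in the same pairs. The footprint ratios were 0.40 [-0.23, 1.02] in Ngn1-GFP and -0.41 [-1.39, 0.56] in OMP-GFP cells. The RNA ratios lay on opposite sides of 0, at 0.41 [0.29, 0.54] in Ngn1-GFP cells and -0.26 [-0.45, -0.07] in OMP-GFP cells. Pde2a (ENSMUSG00000110195) lies on chromosome 7, 101421691 to 101512829, with the microRNA gene Mir139 inside it. Its translational efficiency in the authors' deposited table was 0.713 in Ngn1-GFP KO, 0.782 in Ngn1-GFP control, 0.409 in OMP-GFP KO and 0.456 in OMP-GFP control. In each group this was below the median given above for genes with at least 20 footprints. With 18 footprints in OMP-GFP KO, Pde2a was itself under that minimum there.

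Car2, which turns carbon dioxide into bicarbonate, was the most abundant of the 6 genes by length. Car2 (ENSMUSG00000027562, chromosome 3, 14886269 to 14900770) had 295 footprints in Ngn1-GFP KO against 343 in Ngn1-GFP control, and 480 in OMP-GFP KO against 570 in OMP-GFP control. Its RNA counts were 1405 against 4144 and 2612 against 3158 in the same pairs, or 48.2 against 46.0 CPM and 100.3 against 101.3 CPM. RNA was near level between KO and control, with ratios of 0.07 [-0.02, 0.16] in Ngn1-GFP and -0.01 [-0.09, 0.06] in OMP-GFP cells. Footprints were on opposite sides of 0, at 0.40 [0.18, 0.63] in Ngn1-GFP and -0.37 [-0.55, -0.19] in OMP-GFP cells, and neither was called. Relative to RNA, footprints differed by 0.34 [0.10, 0.58] and -0.35 [-0.54, -0.16].

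Of the 6 genes, 4 had enough footprints in Ngn1-GFP cells and 5 in OMP-GFP cells, and 1 of each was called lower. Over all genes, 10.8% of 12554 were called lower and 6.49% higher in Ngn1-GFP footprints, and 8.54% of 11160 lower and 7.12% higher in OMP-GFP footprints. In RNA all 6 were measured, with 2 called lower in Ngn1-GFP and 1 in OMP-GFP cells, where 11.9% of 16564 and 3.89% of 14351 genes were called lower and 4.4% higher in each. Calls thin out with depth: of genes with at least 500 RNA counts in the pair, as Gucy1b2 has, 6.28% were called lower in Ngn1-GFP and 0.247% in OMP-GFP cells. For footprints the share was 21.4% of Ngn1-GFP genes with 50 to 99 counts and 5.54% of OMP-GFP genes with 100 to 499 counts, the classes that hold Gucy1b2. Since the genes were chosen with these ratios known, their counts are a description, and nothing is read from them against these shares. The median ratio over the measured members was 0.40 in Ngn1-GFP and -0.44 in OMP-GFP footprints, and -0.02 and -0.29 in RNA, where the medians of all genes lay between -0.002 and 0.014.

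**Figure D3:**
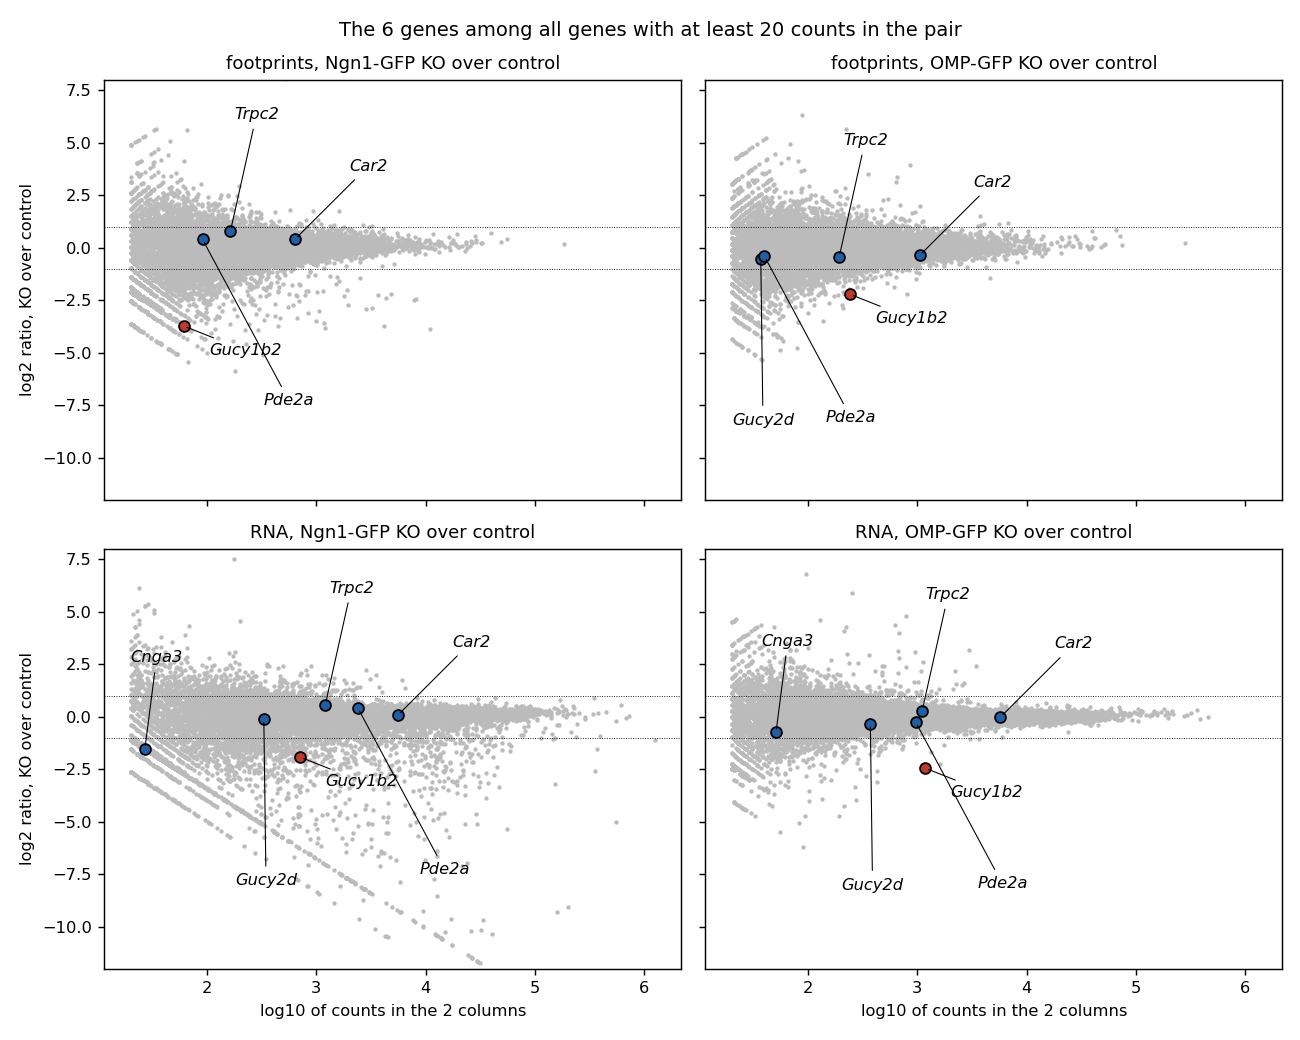
Log2 ratio of KO over control (vertical) against the log10 of the counts in both columns of the pair (horizontal), with grey points for all genes of at least 20 counts, Gucy1b2 in red and the other members in blue, and dotted lines at 2-fold. In OMP-GFP RNA (lower right), Gucy1b2 lies at -2.45 on 1181 counts, while the Ngn1-GFP RNA panel (lower left) has many genes far below the band.

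Between the populations, the members differed in where they were more abundant. In controls, Gucy1b2 had 57.9 footprint CPM in OMP-GFP against 12.4 in Ngn1-GFP cells, a ratio of 2.22 [1.80, 2.66], and its RNA ratio was 2.17 [2.03, 2.32]. Its footprint ratio in KO cells was 3.73, with the 0 of Ngn1-GFP KO set to 3, and its RNA ratio there was 1.65 [1.20, 2.12]. These comparisons share columns with the KO comparisons above. In controls, 4 of 5 measured members were called higher in OMP-GFP footprints, where 6.11% of 12387 genes were called higher, and 4 of 6 in RNA, where 3.43% of 16466 were. Gucy2d had footprint and RNA ratios of 1.75 [0.57, 3.06] and 1.34 [1.07, 1.60], and Car2 of 1.26 [1.07, 1.46] and 1.14 [1.07, 1.21]. Cnga3 had an RNA ratio of 1.86 [1.09, 2.65]. Among KO cells, 1 of 4 measured members was called higher and 1 lower in OMP-GFP footprints, where 11.3% of 11766 genes were called higher, and 3 of 5 were called higher in RNA, where 4.77% of 15058 were. Trpc2 lay at the limit, with a called footprint ratio of 1.01 [0.57, 1.45] and an RNA ratio of 0.96 [0.81, 1.12] that was not called, and its footprint call was lost with DESeq2 size factors (0.998), with library size alone (0.79) and without the filter on low counts (0.9998).

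Pde2a differed from the others, with control ratios of OMP-GFP over Ngn1-GFP of -0.62 [-1.42, 0.13] in footprints and -0.03 [-0.17, 0.11] in RNA. In KO cells its footprints had 4.87 CPM in the OMP-GFP column against 13.1 CPM in the Ngn1-GFP column and were called lower (-1.43 [-2.32, -0.60]), where 18.4% of 11766 genes were called lower. The genes nearest to Pde2a across the 8 columns were Ehmt1 (0.09), Cpsf6 (0.10) and Clip2 (0.11), and those nearest to Car2 were Nrn1l (0.08), Them6 (0.09) and Nfatc2 (0.09), given as root mean square differences on the log2 scale.

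Per length the necklace markers did not have like levels. In OMP-GFP control cells the authors' deposited table gives 204 footprint RPKM for Car2, 2.06 for Pde2a, 1.75 for Gucy2d and 0.278 for Cnga3, beside 22.3 for Gucy1b2 and 11.2 for Trpc2. In OMP-GFP KO cells it gives 149, 1.47, 1.16 and 0 for the 4 necklace markers, and 4.53 and 7.85 for Gucy1b2 and Trpc2. RNA TPM in OMP-GFP control was 182 for Car2, 8.63 for Pde2a, 2.997 for Gucy2d and 0.764 for Cnga3. Car2 was thus far above Gucy2d, the cyclase that defines necklace neurons, and Cnga3 was the lowest of the 4. Pde2a RNA was near level between the control populations, where Gucy2d and Car2 RNA were called higher in OMP-GFP cells.

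Set beside Adcy3 and Cnga2 of the cyclic AMP pathway, Gucy1b2, Gucy2d and Cnga3 were minor. Car2 was not, with 204 footprint RPKM in OMP-GFP control where Cnga2 had 361. Gucy1b2 footprint RPKM were 0.799% of those of Adcy3 in OMP-GFP KO and 4.24% in OMP-GFP control, and 0 against 1.61% in Ngn1-GFP KO and control. Gucy2d was at 0.205% of Adcy3 in OMP-GFP KO and 0.333% in OMP-GFP control. Cnga3 RNA TPM were 0.0458% and 0.0875% of those of Cnga2 in OMP-GFP KO and control. Of 13 genes of cyclic AMP transduction in canonical olfactory neurons, all were measured and none was called in any of the 4 KO comparisons. Their median ratios were 0.18 for Ngn1-GFP footprints, 0.20 for Ngn1-GFP RNA, 0.19 for OMP-GFP footprints and 0.19 for OMP-GFP RNA. Calls were rare at high counts, such as those of Adcy3, Cnga2, Gnal and Omp. Of all genes with at least 500 footprints in the pair, 0.609% were called higher and 1.36% lower in Ngn1-GFP cells. In OMP-GFP cells these shares were 1.3% and 0.508%. Nothing is read from the lack of calls.

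The related lists are given for comparison, and most of their calls rest on under 100 footprints. Of all genes with 20 to 49 footprints in the pair, 18.7% were called higher and 26.9% lower in Ngn1-GFP cells, and 18.2% and 23.1% in OMP-GFP cells. With 50 to 99 footprints the shares were 12.9% and 21.4% in Ngn1-GFP cells, and 12% and 17% in OMP-GFP cells. In Ngn1-GFP RNA, 18.9% of genes with 20 to 49 counts were called higher and 35.5% lower, and 16.8% and 29.3% with 50 to 99. In OMP-GFP RNA the shares were 19.8% and 20% with 20 to 49 counts, and 19.3% and 14.5% with 50 to 99. With 100 to 499 RNA counts they were 9.42% and 20% in Ngn1-GFP cells, and 5.46% and 5.35% in OMP-GFP cells. Calls at under 100 counts are thus common in either direction, and nothing is read from the counts of a list.

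The other guanylyl cyclases went both ways. Of 11 listed, 9 are in the table and 6 were measured in Ngn1-GFP footprints, with 1 called higher and 2 lower, and 2 were measured in OMP-GFP footprints, with 1 higher and 1 lower. In RNA, 2 of 7 were called higher and 2 lower in Ngn1-GFP cells, and 2 of 5 lower in OMP-GFP cells. Gucy1b1, the common beta subunit of the nitric oxide receptor, had 5 footprints in Ngn1-GFP KO against 31 in the control, and 3 in OMP-GFP KO against 54 in the control, ratios of -2.01 [-3.73, -0.63] and -4.29 [-6.61, -2.67]. Its RNA ratio was 0.81 in Ngn1-GFP cells, not called, and -1.11 in OMP-GFP cells, called lower. Gucy1a2, an alpha subunit, had 3 footprints in Ngn1-GFP KO against 23 in the control, and 35 in OMP-GFP KO against 14 in the control, called lower (-2.32) and higher (1.20), with no call in RNA. Gucy2c, the guanylin receptor of the gut, had 44 footprints in Ngn1-GFP KO against 18 in the control (1.91), with RNA also called higher (1.02), and 4 against 4 in OMP-GFP cells.

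Among channel subunits of the cyclic nucleotide-gated family other than Cnga3, none of 3 measured was called in Ngn1-GFP footprints and 1 of 4 in OMP-GFP footprints, Cngb3, a cone channel subunit, with 11 in KO against 25 in control (-1.30 [-2.48, -0.23]). Of 23 other cyclic nucleotide phosphodiesterases, 13 were measured in Ngn1-GFP footprints, with 2 called higher and 1 lower, and 10 in OMP-GFP footprints, with 2 higher. In RNA none of 19 was called in Ngn1-GFP cells and 3 of 18 were called lower in OMP-GFP cells. Pde5a, which is specific for cyclic GMP, was higher in both, with 177 footprints in Ngn1-GFP KO against 65 in the control (2.07 [1.65, 2.50]) and 54 in OMP-GFP KO against 14 in the control (1.83 [0.96, 2.79]). Its RNA was not called in either population (0.24 and -0.25). Pde1b was higher in Ngn1-GFP footprints (2.62, from 16 against 4) and lower in OMP-GFP RNA (-1.17), Pde8a was lower in Ngn1-GFP footprints (-1.34, from 90 against 351), and Pde3b was higher in OMP-GFP footprints (2.24, from 36 against 7).

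Of 9 cyclase ligands, activators and nitric oxide synthases, 2 were measured in Ngn1-GFP and 1 in OMP-GFP footprints, with 1 called higher in each. The neuronal synthase Nos1 had 24 footprints in Ngn1-GFP KO against 5 in the control (2.89, called higher), and 0 in OMP-GFP KO against 6 in the control, too few for a ratio. The endothelial synthase Nos3 had 26 footprints in OMP-GFP KO against 8 in the control (1.58, called higher), and in Ngn1-GFP cells 0 in KO against 18 in the control, which is below the minimum. In RNA, 1 of 3 was called higher in Ngn1-GFP cells and 2 of 3 in OMP-GFP cells. The cyclic GMP-dependent kinase Prkg1 was higher in Ngn1-GFP footprints (1.16 [0.29, 2.06]) and had too few in OMP-GFP cells, where its RNA was called higher (1.04). Of 15 carbonic anhydrases besides Car2, 4 were measured in Ngn1-GFP footprints, with 2 higher and 1 lower, and 2 in OMP-GFP footprints, with 1 higher. In RNA, 3 of 10 were called higher and 1 lower in Ngn1-GFP cells, and 1 of 5 higher in OMP-GFP cells. Car6, the secreted enzyme of saliva, was higher in both assays of both populations, with footprint ratios of 1.06 and 2.72 and RNA ratios of 1.19 and 3.26. Car11 was lower in Ngn1-GFP footprints (-1.98) and Car3 higher (1.16). Of the 6 TRPC channels besides Trpc2, 2 were measured in the footprints of each population and none was called there. Footprint ratios in Ngn1-GFP and OMP-GFP cells were 0.02 and 0.46 for Trpc1 and -0.78 and -0.005 for Trpc4. In RNA, 1 of 4 TRPC channels was called lower in Ngn1-GFP cells and none of 3 in OMP-GFP cells. Of 19 Ms4a genes, the family that serves as receptors in necklace neurons, 2 were measured in Ngn1-GFP footprints and none in OMP-GFP footprints. The 2 were Ms4a1 (2.04) and Ms4a7 (1.72), both markers of blood cell types and both called higher. In RNA, 1 of 5 Ms4a genes was called higher and 1 lower in Ngn1-GFP cells, and none of 2 was called in OMP-GFP cells.

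**Figure D4:**
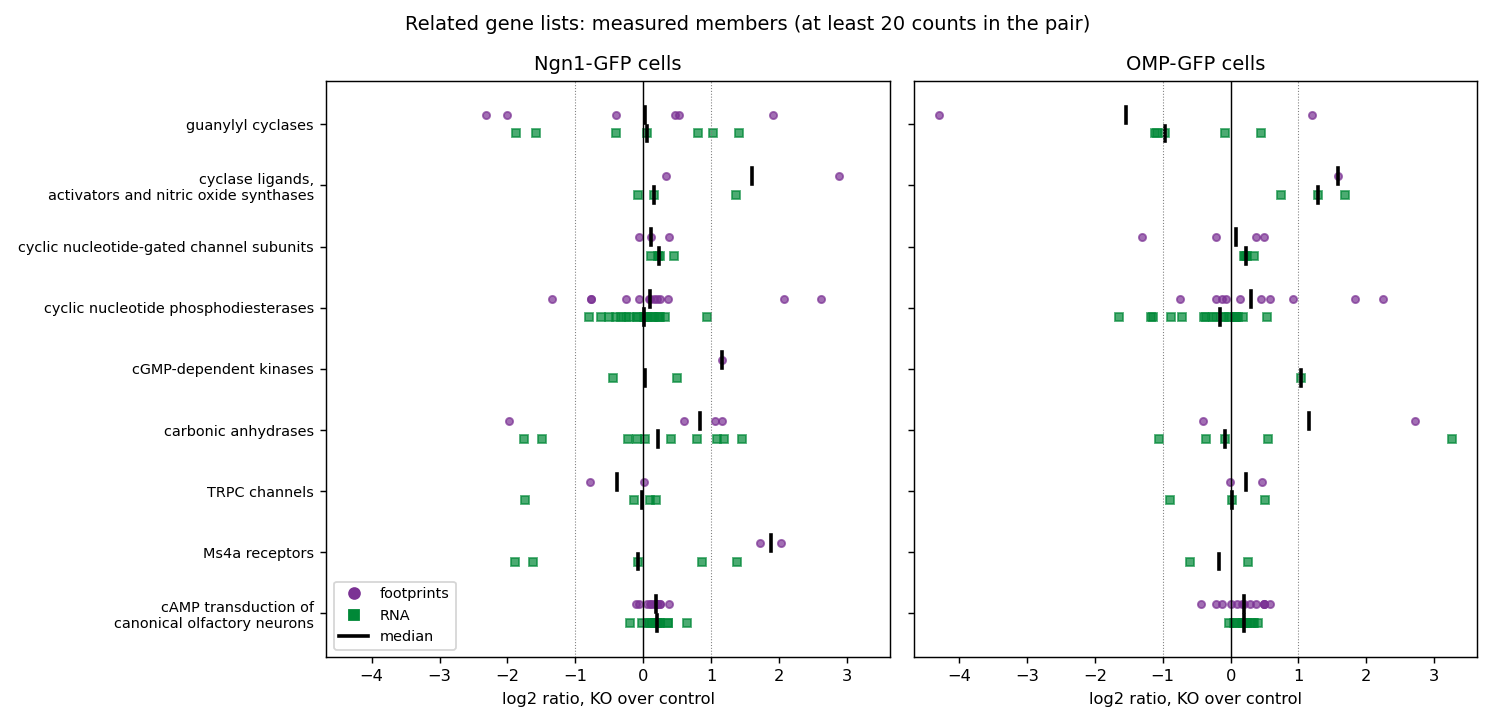
Log2 ratios of KO over control in Ngn1-GFP cells (left) and OMP-GFP cells (right) for the measured genes of 9 related lists, circles for footprints, squares for RNA, black bars for medians and dotted lines for 2-fold. Genes of cyclic AMP transduction stay inside 2-fold in both panels, while the guanylyl cyclases spread to both sides, down to -4.29 for Gucy1b1 footprints in OMP-GFP cells. The lists differ in depth. Over all genes in OMP-GFP footprints, the standard deviation of the ratios was 1.07 with 50 to 99 counts, as Gucy1b1 has, and 0.40 with at least 500.

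Markers of other cells moved between the columns. Summed footprints of 8 sustentacular genes were 707 scaled CPM in Ngn1-GFP KO against 5824 in Ngn1-GFP control, with all 8 called lower, and 587 in OMP-GFP KO against 205 in OMP-GFP control, with 5 of 7 measured called higher. Summed footprints of 8 nasal gland genes were 626 against 345 CPM in Ngn1-GFP cells and 564 against 61.4 in OMP-GFP cells, where all 7 measured were called higher. Those of 7 red cell genes were 65.1 against 88.4 CPM in Ngn1-GFP cells and 157 against 65.2 in OMP-GFP cells, those of 6 endothelial genes 13.8 against 19.7 and 15.4 against 7.64, and those of 7 microvillar and tuft cell genes 84.1 against 150 and 26.8 against 22.9, each KO against control. RNA sums, in the same order, were 227 against 1305 and 367 against 97.9 CPM for sustentacular genes, 114 against 63.1 and 106 against 11.3 for gland genes, and 43.6 against 239 and 109 against 49.8 for red cell genes. They were 11.1 against 8.57 and 9.25 against 6.74 CPM for endothelial genes, where the Ngn1-GFP direction was opposite to that of the footprints, and 69.1 against 102.0 and 44.2 against 31.2 for microvillar and tuft cell genes. Most microvillar and tuft cell genes went against these RNA sums. Of 7, 6 had RNA ratios above 0 in Ngn1-GFP cells (median 0.52) and 5 below 0 in OMP-GFP cells (median -0.96). Krt18 alone held 7568 of the 9189 RNA counts of that list in Ngn1-GFP control and 828 of 1151 in OMP-GFP KO. The higher gland sums in Ngn1-GFP KO rested largely on Bpifb4, with 1118 of the 2002 KO footprints and 1978 of the 3313 KO RNA counts. In Ngn1-GFP cells 4 of 7 measured gland genes had footprint ratios below 0 (median -0.02). In RNA 5 of 8 were below 0 there (median -0.68). No gene of the sustentacular list was at 0 in any column. Sustentacular markers were thus lower in KO in Ngn1-GFP cells and higher in OMP-GFP cells. Of 328 vomeronasal receptor genes, 11, 19, 6 and 17 had a footprint in Ngn1-GFP KO, Ngn1-GFP control, OMP-GFP KO and OMP-GFP control, and the summed levels were 13.1, 12.6, 8.38 and 15.9 CPM. Their summed RNA was lower in KO in both populations, with 11.7 CPM in Ngn1-GFP KO against 31.4 in the control, and 7.83 CPM in OMP-GFP KO against 11.3 in the control. Of 36 measured in Ngn1-GFP RNA, 25 were called lower and 3 higher, and of 6 measured in OMP-GFP RNA, 3 were called lower. Over all genes, 11.9% were called lower and 4.4% higher in Ngn1-GFP RNA, and 3.89% lower in OMP-GFP RNA. Among all genes with 20 to 49 RNA counts in the pair, 35.5% and 20% were called lower in Ngn1-GFP and OMP-GFP cells. The part of these other cells in the results of the 6 genes was not tested.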

How the data were processed

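Ribosome footprints and input RNA were measured in GFP-positive cells sorted from papain-dissociated mouse main olfactory epithelium. Per the submitters' processing notes, FastQC, cutadapt, STAR and the mm10 genome were used, without versions, and per the labels' protocols libraries were made with a stranded total RNA kit for low input. The deposited counts are whole numbers per gene and group over coding sequence, per the file headers. The deposited footprint RPKM and RNA TPM were computed by the authors per length and depth, and recomputing both from counts and lengths gave the same values up to rounding. The translational efficiency ratio is the authors' own, as deposited. The sources used here do not give how columns were made from libraries or whether counting used strand. The Cre driver is not reported here.

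Factors came from edgeR 4.0.16 (TMM, R 4.3.3) on genes kept by filterByExpr, and ratios, exact binomial intervals and plots from Python 3.11.15 with numpy 2.4.6, pandas 2.3.3, scipy 1.17.1 and matplotlib 3.10.9. Intervals of differences and of footprints over RNA are approximate. A 0 was set to 3 counts for a fold. The script for ratios was tested on simulated data. With 1 column per group, edgeR's test across genes was not run. Likeness between genes used log2(CPM + 0.5), centred per assay, over genes with at least 100 footprints, for members with at least 50. Of 22510 gene names, 21322 were found in RefSeq GRCm38.p6, the 6 members among them, and 5 members have an upstream window there.

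The members and the 15 gene lists were chosen with earlier results of these data known. Named genes are the members, up to 3 members of each list called in footprints and otherwise the 2 with the most footprints, and the 3 nearest genes. Alternatives were scaling by DESeq2 1.42.0, scaling by total counts alone, TMM with olfactory receptor, mitochondrial and ribosomal protein genes left out, no filter, and a minimum of 50 counts in a pair.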

Additional observations from a re-analysis of the deposited data

Results flagged for a closer look

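The KO effect lay on opposite sides of 0 in the 2 populations, with counting intervals that do not reach 0, for 3 of the genes. For Trpc2 footprints it was -0.44 in OMP-GFP and 0.80 in Ngn1-GFP cells, a difference of -1.23 on the log2 scale. With DESeq2 size factors the OMP-GFP interval of Trpc2 was -0.84 to 0.011 and reached 0. For Car2 footprints it was -0.37 in OMP-GFP and 0.40 in Ngn1-GFP cells, a difference of -0.77. For Pde2a RNA it was -0.26 in OMP-GFP and 0.41 in Ngn1-GFP cells, a difference of -0.67. By the 2-fold rule the Trpc2 difference was called, and those of Car2 and Pde2a were not. Over all genes, called differences between the populations were not rare in either direction, in footprints or in RNA. How many of all genes lay on opposite sides of 0 in this way is not given here, so nothing is read from the count of 3. Each of the 3 differences rests on 1 column per group and was not tested against the spread between animals.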

How the results depend on the processing

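Of 332 alternative values, 324 stayed within the counting interval or 1.5 times the count, 8 moved and none changed sign while called. The ratios of Gucy1b2, KO over control, ranged from -3.79 to -3.70 and -2.30 to -2.19 in Ngn1-GFP and OMP-GFP footprints, and from -1.93 to -1.87 and -2.46 to -2.43 in RNA, called in each. The sign of 1 uncalled value changed: Car2 RNA, OMP-GFP KO over control, came to 0.003 with DESeq2 size factors. Scaling by library size alone moved the median of all genes by -0.21 and -0.23 for OMP-GFP over Ngn1-GFP footprints in control and KO cells, and by -0.12 for RNA in KO cells. It moved Car2 in the same comparisons to 1.05, 0.27 and 0.94, and the last was then not called. It also turned 757 genes called higher and 2160 lower into 461 and 2605 in control cells, and 1325 and 2162 into 923 and 2637 in KO cells. With at least 50 counts in a pair, fewer genes are measured. Genes called between KO and control in footprints came to 1313 in Ngn1-GFP (2176 at 20 counts) and 1045 in OMP-GFP cells (1748), and in OMP-GFP RNA to 708 (1190). Between populations, footprint calls came to 1934 in control (2917) and 2264 in KO cells (3487). At that minimum Gucy2d has no footprint ratio, Pde2a none in OMP-GFP KO over control, Gucy1b2 none between the KO populations, and Cnga3 no RNA ratio in Ngn1-GFP cells.

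No paired analysis was possible because the columns carry no replicate numbers, and leaving out a replicate was not run for the same reason. Counting intervals leave out the spread between libraries and animals.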
